A study of Mus musculus with 2 samples.

Results

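The chemokine and chemokine receptor genes of the mouse were taken as those whose symbol begins with Ccl, Cxcl, Cx3cl, Ccr, Cxcr, Cx3cr or Ackr followed by a digit and which have a protein coding transcript. Of 55450 named genes, 61 matched the symbols and 59 were kept, the other two being pseudogenes. The 59 were 37 ligands (23 CC, 13 CXC and 1 CX3C) and 22 receptors (18 typical and 4 atypical). Their levels were read in whole-tissue RNA of the gastrocnemius, a calf muscle, from female B6CASTF1/J mice, the F1 hybrid of C57BL/6J and CAST/EiJ, at 10 days of age. The series has 1 group of 2 libraries, biological replicates 1 and 2, each from 300 ng of RNA with ribosomal RNA reduced, ERCC spike-ins added and no treatment named in the labels. The labels give separate biosamples and do not say that each came from 1 animal, so part of the spread between the libraries may be technical. With no second group and 1 library on either side of any contrast, no test was possible, and levels are given per library, in the order replicate 1 and replicate 2, or as mean ± SD with n = 2.

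Chemokines are small secreted proteins that direct cell migration through receptors with a heptahelical fold, and they are held on cell surfaces and matrix by heparan sulfate. Ligands are classed by the spacing of their first cysteines as CC, CXC or CX3C. Typical receptors signal through inhibitory G proteins, whereas the atypical receptors of the Ackr group bind and remove ligand without that coupling. In muscle, chemokines are known for bringing leukocytes to injury, and the ligand Cxcl12 with its receptor Cxcr4 for guiding muscle progenitors and blood vessels.

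Replicate 1 held 35925081 expected counts and replicate 2 39969380. All 5 myofibre markers were detected, summing to 60701 and 71534 TPM. Markers of bone and of marrow cells differed between the libraries and are set again beside the replicate ratios. All 7 osteoblast markers, all 4 osteoclast markers and all 7 neutrophil markers whose mean count was 20 or more were at least 2-fold higher in replicate 1. Summed TPM was 260.4 and 2.62 for osteoblast, 177.2 and 12.9 for osteoclast, and 58.4 and 1.02 for neutrophil markers. In replicate 2 the osteoblast genes Ibsp and Bglap were at 0 counts, as were the neutrophil genes Ngp, Camp, Elane and Mmp8.

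Few chemokine genes were detected, and Cxcl12 led the ligands and its receptors Cxcr4 and Ackr3 the receptors. A gene was called detected at a TPM (the share of transcripts after scaling by length, on a fixed total per library) of 1 or more in both libraries. By that rule 13 of the 59 genes were detected (22.0%), against 52.5% of the 21888 nuclear genes with a protein coding transcript. They were 9 of 37 ligands and 4 of 22 receptors. In bulk tissue, few expressing cells and little RNA per cell cannot be told apart, so a low level does not say which applies. A further 6 genes reached TPM 1 in 1 library, 11 had a mean TPM of 0.1 to under 1, 18 were above 0 but under 0.1, and 11 had 0 counts in both libraries. All 59 together held 121.3 and 105.0 TPM, or 0.0247% ± 0.00286 (SD, n = 2) of the TPM of nuclear coding genes. Ligands summed to 91.2 and 82.4 TPM and receptors to 30.1 and 22.7.

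**Figure D1:**
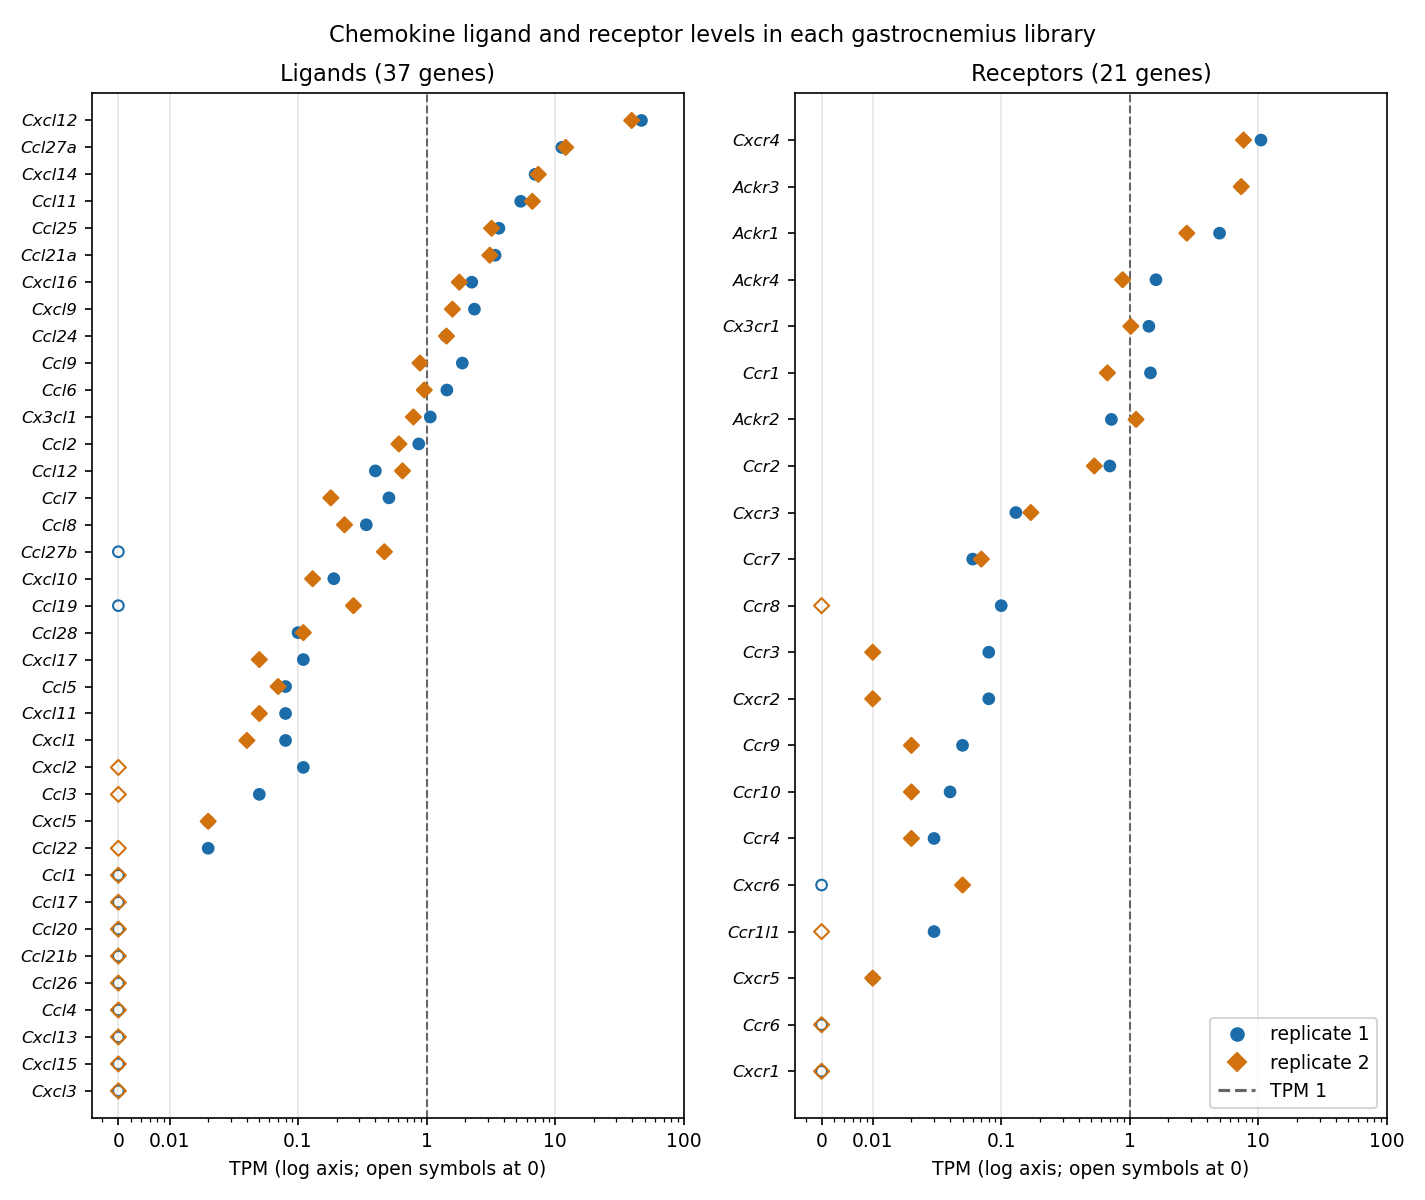
TPM of the 37 ligands (left) and of 21 receptors (right) on a log axis, with 1 circle for replicate 1 and 1 diamond for replicate 2; open symbols mark a level of 0 and the dashed line marks TPM 1. Cxcl12 lies apart from the other ligands at 47.05 and 39.52, and Cxcr4 and Ackr3 lead the receptors.

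Cxcl12, the ligand that retains and guides progenitor and endothelial cells, was the highest member at TPM 47.05 and 39.52, from 4381 and 4331 counts (ENSMUSG00000061353.11, chr6:117168535-117181367, plus strand, mm10). It ranked 1369 among nuclear coding genes and held 49.8% ± 2.53 (SD, n = 2) of all ligand TPM. The next member by TPM of the whole gene, Ccl27a, was 3.70-fold lower by the ratio of means, and the libraries of these genes did not overlap. Coding transcripts of Ccl27a held 6.95 and 8.28 of its 11.3 and 12.1 TPM. Cxcl12 gave 3 protein coding transcripts that share their first 89 codons and differ in the 3′ end of the reading frame. The last 10 shared codons of each are printed in lower case, with the codons of its own in capitals, since these ends are what separates the forms. Positions are the first and last printed base on the plus strand, and introns between them are left out.
Cxcl12 alpha (chr6:117173550-117173579): caagagtacctggagaaagctttaaacaag
Cxcl12 beta (chr6:117173550-117178595): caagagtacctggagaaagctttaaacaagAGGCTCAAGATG
Cxcl12 gamma (chr6:117173550-117176176): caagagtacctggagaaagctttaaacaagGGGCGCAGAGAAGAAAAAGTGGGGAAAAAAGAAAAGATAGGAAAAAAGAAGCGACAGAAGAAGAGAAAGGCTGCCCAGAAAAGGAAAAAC
The alpha form has no codons of its own, the beta form has 4 and the gamma form has 30, of which 17 (56.7%) encode lysine or arginine. The gamma tail is known for strong binding to heparan sulfate. Alpha held 43.2% and 44.7% of Cxcl12 TPM, gamma 32.8% and 38.0%, and beta 20.4% and 15.5%. A retained intron transcript held 3.62% and 1.84%. The order alpha, gamma, beta was thus the same in both libraries in these tables. In the kallisto-format tables, a separate quantification of the same libraries, gamma held 38.6% and 48.2% and alpha 44.5% and 46.1%, so that gamma led in replicate 2. Beta held 13.4% and 3.84% in those tables. Shares of expected counts, which are not scaled by length, gave the 5627-base gamma transcript 55.0% and 61.5%. These shares rest on a model that divides reads among transcripts with common exons.

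**Figure D2:**
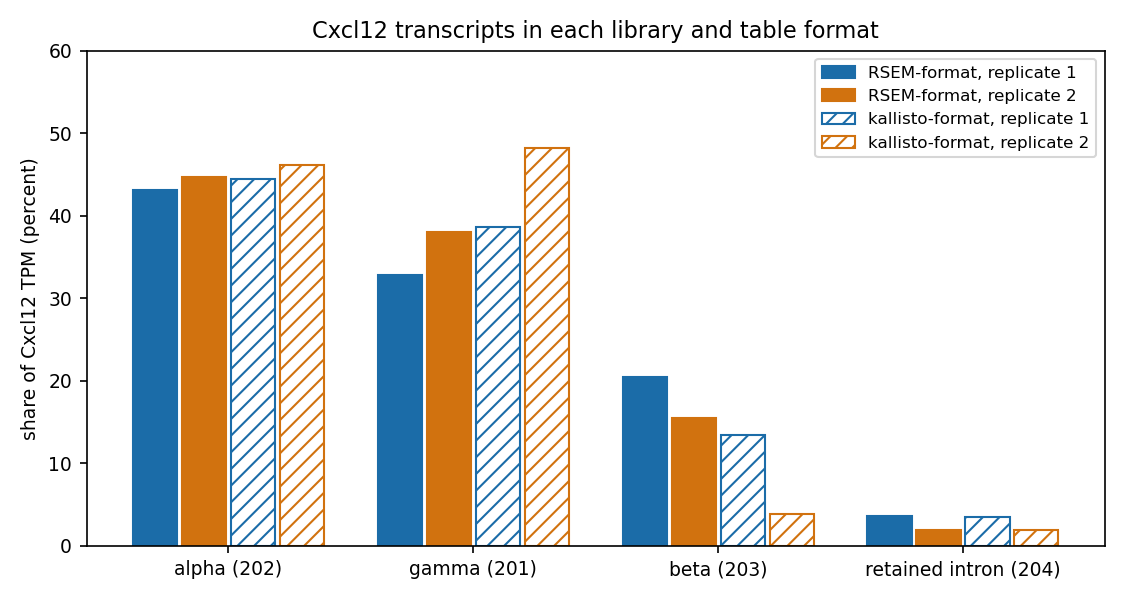
Share of Cxcl12 TPM held by each of its 4 transcripts, in percent; filled bars are the RSEM-format tables, hatched bars the kallisto-format tables, and colours the 2 replicates. Alpha and gamma hold most of the gene in all 4 quantifications, and beta ranges from 3.84% to 20.4%.

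Both known receptors of Cxcl12 were detected and led the receptor class. Cxcr4, the typical receptor (chr1:128588199-128592293, minus strand), stood at TPM 10.50 and 7.68 from 432 and 391 counts, and held 34.4% ± 0.712 (SD, n = 2) of receptor TPM. Ackr3, the atypical receptor that removes Cxcl12 (chr1:90203980-90216751, plus strand), stood at 7.36 and 7.37 from 520 and 666 counts, with 28.5% ± 5.70 of receptor TPM. Cxcr4 had a higher TPM than Ackr3 in both libraries, by 1.43-fold in replicate 1 and 1.04-fold in replicate 2. In replicate 2 the deposited TPM intervals overlapped, at 6.73 to 8.54 for Cxcr4 and 6.66 to 8.02 for Ackr3. By counts, Ackr3 was the higher in both libraries. Cxcl12 exceeded Cxcr4 by 4.48-fold and 5.15-fold and Ackr3 by 6.39-fold and 5.36-fold on the TPM scale. Of Cxcr4 TPM, 72.7% and 86.8% came from the transcript with the whole reading frame of 359 codons.

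Typical and atypical receptors had similar summed levels. The 4 atypical receptors summed to 14.7 and 12.2 TPM and the 18 typical receptors to 15.4 and 10.5, most of the latter being Cxcr4. Ackr1, the promiscuous receptor of venules and erythroid cells, was at 5 and 2.78. It shares 361 exonic bases (25.7%) with Cadm3 on the same strand, a gene at 13.9 and 9.53 TPM, so its level is uncertain. Cx3cr1, a receptor of resident macrophages, was at 1.41 and 1.02. Ackr4, which removes Ccl19, Ccl21 and Ccl25, was at 1.60 and 0.88. Ackr2, which removes inflammatory CC ligands, was at 0.72 and 1.12, with deposited TPM intervals of 0.61 to 1.71 and 0.66 to 1.94. In the kallisto-format tables Ackr4 stood at 2.42 and 1.39 and Ackr2 at 1.32 and 1.52. Which library reached TPM 1 thus depended on the table format. The DRYLAIV motif at the inner end of the third helix, known for a part in G protein coupling, was read from the codons to set typical beside atypical receptors. Capitals mark codons that encode the residue of the motif, 7 in all.
Cxcr4 (chr1:128589500-128589520, minus strand): GACCGGTACCTCGCTATTGTC
Cx3cr1 (chr9:120051936-120051956, minus strand): GACCGGTACCTTGCCATCGTC
Ackr3 (chr1:90214241-90214261, plus strand): GACCGCTATCTCtccATCacc
Ackr4 (chr9:104099321-104099341, minus strand): GACAGATATtggGCAATTacc
All 7 codons were present in 11 of the 18 typical receptors, among them both that were detected, and in 0 of the 4 atypical receptors. Typical receptors without the full motif included Ccr7 and Cxcr3, with 6 codons each, so the full motif does not define the typical class. Ackr3 and Ackr4 kept 5 of the 7. No Asp-Arg-Tyr or Asp-Arg-Phe triplet of codons was found in Ackr1 or Ackr2.

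Among the other typical receptors, those of inflammatory monocytes lay near or below TPM 1, and those of lymphocytes and neutrophils were close to 0. Ccr1, a receptor of monocytes and neutrophils, was at 1.45 and 0.67, and Ccr2, of monocytes, at 0.70 and 0.53. Cxcr3, of activated T cells, had 6 and 9 counts, and Ccr7, of naive T cells and migrating dendritic cells, had 3 and 4. Ccr3, the eosinophil receptor, and Cxcr2, the neutrophil receptor, each had 7 and 1. Ccr4, Ccr8, Ccr9, Ccr10, Ccr1l1, Cxcr5 and Cxcr6 were at a mean TPM under 0.1, and Ccr6 and Cxcr1 were at 0 counts. A count of 0 allows up to 3 counts, or 0.0841 and 0.0757 CPM (counts scaled to library size), counting error only. For the cells that carry these receptors, none of 8 T and NK cell markers and none of 5 B cell markers was detected, with Ncr1 and Nkg7 at 0 counts. None of 10 neutrophil markers was detected in both libraries, though they summed to 58.4 and 1.02 TPM. The same held for 4 monocyte markers, which summed to 4.76 and 1.48. Of 5 dendritic cell markers 1 was detected. Of 7 mast cell and eosinophil markers, taken as 1 list, 4 were detected, and the 7 summed to 29.4 and 17.8 TPM. All 11 macrophage markers were detected, summing to 96.5 and 73.7 TPM.

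Below Cxcl12, 8 more ligands were detected, from 5 CC and 3 other CXC genes. Ccl27a, a skin homing ligand of Ccr10, was at 11.3 and 12.1 TPM. Cxcl14, an epithelial and stromal ligand, was at 7 and 7.41 and overlapped in level with Ackr3. Ccl11, the eosinophil attractant eotaxin, was at 5.41 and 6.66, and Ccl24, its relative, was at 1.42 and 1.43. Ccl25, known from thymus and gut, was at 3.66 and 3.21 and did not separate from Ccl21a, the ligand of lymphatic vessels, at 3.42 and 3.11. Cxcl16, made as a membrane-bound ligand, was at 2.25 and 1.80, which overlapped with the interferon-induced Cxcl9 at 2.36 and 1.59. Cxcl9 was the one detected member of the induced group of Cxcl9, Cxcl10 and Cxcl11, and exceeded Cxcl10 by 12.4-fold and 12.2-fold and Cxcl11 by 29.5-fold and 31.8-fold, though Cxcl10 rested on 4 counts in each library and Cxcl11 on 6 and 4. In the kallisto-format tables Cxcl9 exceeded Cxcl10 by 9.13-fold and 9.81-fold and Cxcl11 by 4.38-fold and 7.47-fold. Cxcl11 is annotated as a polymorphic pseudogene with a coding transcript, and 4.69 and 3.07 of its counts went to the transcript of the pseudogene class.

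By mean TPM the members just above 1 were Ccl9 at 1.90 and 0.89, Ackr4, Cx3cr1, Ccl6 at 1.44 and 0.96, and Ccr1. Those just below were Cx3cl1 at 1.07 and 0.79, Ackr2, Ccl2 at 0.87 and 0.61, Ccr2 and Ccl12 at 0.40 and 0.65. Ccl6 and Ccl9 are macrophage products, Cx3cl1 is the membrane-anchored ligand of Cx3cr1, and Ccl2 and Ccl12 attract monocytes through Ccr2. Ccl7 was at 0.51 and 0.18 and Ccl8 at 0.34 and 0.23 TPM. Ccl3 and Ccl5, products of activated leukocytes, were at 0.05 and 0, and at 0.08 and 0.07. Ccl1, Ccl4, Ccl17, Ccl20, Ccl21b, Ccl26, Cxcl3, Cxcl13 and Cxcl15 were at 0 counts.

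The neutrophil-attracting CXC ligands among the members had few counts. In these the codons for Glu-Leu-Arg stand just before the first cysteine of the CXC motif, and the search found them in 5 ligands: Cxcl1, Cxcl2, Cxcl3, Cxcl5 and Cxcl15. Together the 5 had 6 and 3 counts and a summed TPM of 0.21 and 0.06, whereas all 13 CXC ligands summed to 59.3 and 50.6. The search did not cover Ppbp, a chemokine relative outside the symbol rule, at 1.44 and 0.13 TPM from 40 and 4 counts. The stretches below show the cysteine codons and the codons between them in capitals, with 3 codons on either side. Those of Cxcl1 begin with the Glu-Leu-Arg codons, which are not in the others.
Cxcl12 (chr6:117171499-117171525, plus strand): agctaccgaTGCCCCTGCcggttcttc
Cxcl14 (chr13:56295906-56296110, minus strand): gggtccaagTGTAAGTGTtcccggaag
Cxcl1 (chr5:90891487-90891513, plus strand): gagctgcgcTGTCAGTGCctgcagacc
Ccl11 (chr11:82061687-82061710, plus strand): ccaacttccTGCTGCtttatcatg
Ccl21a (chr4:42773726-42773749, minus strand): ggtcaggacTGCTGCcttaagtac
Cx3cl1 (chr8:94778042-94778074, plus strand): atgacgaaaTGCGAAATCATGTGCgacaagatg
Ccl11 and Ccl21a have adjacent cysteines, Cxcl12, Cxcl14 and Cxcl1 have 1 codon between them, and Cx3cl1 has 3. The Cxcl14 stretch spans an intron. The CC motif was not found in the coding transcript of Ccl27a with the highest mean TPM. Of 8 coding transcripts of Ccl27a, 3, each of 87 codons, lack adjacent cysteines and held 3.52 and 3.35 TPM, and 5 have them and held 3.43 and 4.93. In the kallisto-format tables the former held 2.48 and 1.44 and the latter 8.03 and 9.74.

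Ligands and receptors were then set side by side as 47 textbook pairs. Both sides were detected in 2 pairs, Cxcl12 with Cxcr4 and Cxcl12 with Ackr3. The ligand alone was detected in 10 pairs, the receptor alone in 4, and neither in 31. Detected ligands whose typical receptor was under TPM 1 in both libraries were Ccl11 and Ccl24 (Ccr3 at 0.08 and 0.01), Ccl21a (Ccr7 at 0.06 and 0.07), Ccl25 (Ccr9 at 0.05 and 0.02), Ccl27a (Ccr10 at 0.04 and 0.02), Cxcl9 (Cxcr3 at 0.13 and 0.17) and Cxcl16 (Cxcr6 at 0 and 0.05). These are levels of whole genes. Coding transcripts alone held 0.40 and 0.78 TPM for Ccl25, 0.84 and 0.51 for Cxcl16, and 1.10 and 0.89 for Cxcl9. For Ccl27a they held 6.95 and 8.28. The pair count depends on the pairs listed, where the promiscuous Ackr1 has only Ccl2, Ccl5 and Cxcl1. It also depends on the threshold. At TPM 0.5 it was 11, with Cx3cl1 and Cx3cr1, Ccl2 and Ccr2, and Ccl6 and Ccl9 with Ccr1 among those added, and with replicate 1 alone it was 7.

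Genes that act around chemokines came from lists of pathway members, whose counts are read against the 52.5% of nuclear coding genes that were detected. For display on heparan sulfate, all 15 genes were detected, led by the proteoglycans Gpc1 at 122.4 and 124.3 TPM and Hspg2 at 130.7 and 99.4, and by the sulfotransferase Ndst1 at 27.7 and 24.4. For receptor signalling, 17 of 21 were detected, led by Gnb2, Rac1 and Gnai2, the last at 102.4 and 81.4. Counts in the other lists lay nearer to that share. For proteases that trim or shed chemokines, 7 of 11 were detected, led by Mmp2 at 112.6 and 91.0. Among inducers and NF-kB genes 11 of 18 were detected: the transcription factor genes Nfkb1 and Rela stood at 12.7 and 10.4, and at 12.8 and 10.2. The inducing cytokines were low: Tnf had 19 and 13 counts, Il1b 7 and 1, Il6 3 and 1, Ifng 1 and 0, and Il1a and Il17a were at 0 counts. Of 12 chemokine relatives outside the symbol rule 7 were detected, led by Mif at 65.5 and 78.8, Rarres2 and the platelet chemokine Pf4 at 17.5 and 13.6, with Xcl1 and Xcr1 at 0 counts.

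No chemokine gene of the symbol rule with a mean count of 20 or more differed by 2-fold between the libraries under the scaling used. Replicate ratios are differences in log2 CPM, replicate 2 minus replicate 1, after TMM scaling, and were read where the mean count was 20 or more. Of the 59 members 20 passed that filter and 0 reached 2-fold, against 2.26% of 13300 nuclear coding genes at least 2-fold higher in replicate 1 and 0.233% at least 2-fold higher in replicate 2. With so few members and such a background, a count of 0 says little about the members. Their ratios ran from -0.86 to 0.73 with a median of -0.10, beside 0.03 for all genes. The interval for counting error alone, exact binomial at 95%, lay within 2-fold in 16 of the 20 and left out 0 in 7.

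The lowest ratios were those of Ccr1, Ccl9, Ackr4 and Ackr1, and the highest those of Ccl24, Ccl11, Ackr3 and Cxcl14. Ccr1, with 112 and 59 counts, was lowest at -0.86 (interval -1.34 to -0.39). It was followed by Ccl9 at -0.66, with 96 and 58 counts, by Ackr4 at -0.66, with 76 and 46, and by Ackr1 at -0.60, with 148.7 and 94.1. Ccl11, with 150 and 210 counts, stood at 0.54 (0.24 to 0.86), Ackr3 at 0.42 (0.25 to 0.59) and Cxcl14 at 0.32 (0.11 to 0.53). Cxcl12 was at 0.04 (-0.02 to 0.11) and Cxcr4 at -0.08 (-0.28 to 0.12). Macrophage markers had a median of -0.13 over 10 genes, with 0 of them 2-fold apart, against -5.61 over 7 neutrophil and -4.39 over 4 osteoclast markers. Monocyte markers had a median of -1.48 over 3 genes, all higher in replicate 1, with Plac8 at 33 and 11 counts and Chil3 at 46 and 0. B cell markers had a median of -2.52 over 2 genes, Pax5 at 39 and 3 counts and Cd79b at 39 and 12. The neutrophil gene S100a9 had 229 and 4 counts and the osteoclast gene Acp5 1937 and 35. In the signalling list 3 of 21 genes, Rac2, Plcb2 and Ptk2b, were at least 2-fold higher in replicate 1, at -1.44, -2.26 and -1.01. The share over all nuclear coding genes was 2.26%. Dock2, Pik3r5 and Pik3cg of that list were at -0.60, -0.68 and -0.22. To any degree, 14 of the 21 were higher in replicate 1. Among the proteases Mmp9 was at -5.66, and among the relatives outside the symbol rule Ppbp was at -3.11, with 40 and 4 counts. The part of bone and marrow cells, monocytes and B cells in the ratios of Ccr1, Ccl9, Ackr4 and Ackr1 was not tested. Markers of erythroid cells, which carry Ackr1, had a median of -0.39 over 5 genes, all higher in replicate 1. Of the 5, 2 were at least 2-fold higher there. Slc4a1 had 490 and 30 counts and Alas2 513 and 375. Vein markers had a median of -0.19 over 3 genes, 2 of them higher in replicate 1 and 1 by at least 2-fold. The part of erythroid and vein cells in the ratio of Ackr1 was not tested.

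The direction depends on what is held equal for members near 0. Scaling by library totals shifted the median of all genes by -0.21 and by spike-in totals by -0.36 on the log2 scale. Cxcl12, Ccl21a, Ackr2, Ccl27a and Cxcl14 were higher in replicate 2 with TMM and lower with spike-in totals. Cxcl9 and Cxcr4 were lower in replicate 2 with TMM and higher with kallisto-format counts. With spike-in totals Ccr1, Ccl9 and Ackr4 passed 2-fold, at -1.22, -1.02 and -1.02, 3 of the 20 members, where 5.06% of all genes were 2-fold apart. With library totals Ccr1 alone passed, at -1.07, and with kallisto-format counts Ccl24 alone, at 1.01 from 18 and 34 counts.

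**Figure D3:**
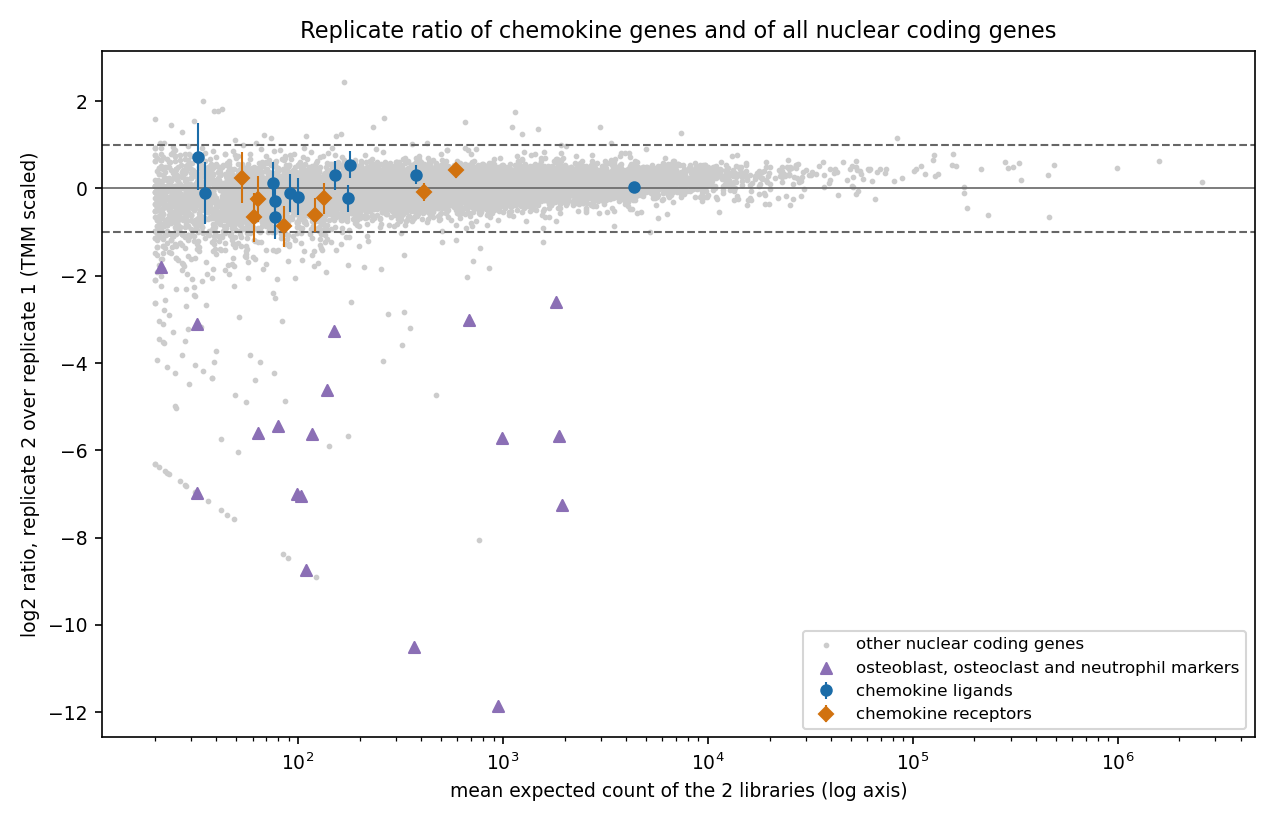
Log2 ratio of replicate 2 over replicate 1 (TMM scaled) against the mean expected count on a log axis, for 13300 nuclear coding genes; circles are chemokine ligands and diamonds receptors, with bars for the exact binomial counting interval, triangles are osteoblast, osteoclast and neutrophil markers, and dashed lines mark 2-fold. The 20 chemokine genes lie between the dashed lines, and the triangles lie below them.

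Transcript class differed among the detected members, and for some the coding transcripts were a minority. Coding transcripts held under 50% of TPM in both libraries in 2 of 13 detected members, Cxcl16 and Ccl25, against 6.44% of all detected genes. For Cxcl16, a transcript annotated as a target of nonsense-mediated decay held 62.8% and 71.7%. For Ccl25, retained intron transcripts held 67.2% and 49.8% and coding transcripts 10.9% and 24.1%, and the coding transcript of 144 codons had 0 and 24 counts. Cxcl9 gave 53.4% and 43.7% to a retained intron transcript of 370 bases that rested on 9.61 and 6.02 counts and was at 0 in the kallisto-format tables. Ccl27a gave 61.4% and 68.4% to coding transcripts. In 8 of the 13, coding transcripts held all of the TPM. The leading transcript changed between the libraries in the detected Ccl24, Ccl27a and Cxcl9, and in Ackr2, Ccl12, Ccl6 and Ccr2 among others. The 561-base Ccl24 form held 77.7% and 44.3%, though the other form led both libraries in the kallisto-format tables. In Ccl27a a 350-base form led replicate 1 at 31.2% and a 590-base form led replicate 2 at 33.6%. Neither Ccl27a form led in the kallisto-format tables. The longer Ackr2 form of 3015 bases held 83.3% and 0%, whereas in the kallisto-format tables it held 20.2% and 44.6%, the opposite order. Ccl12 moved from its coding transcript to a noncoding one on 5 and 8 counts.

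**Figure D4:**
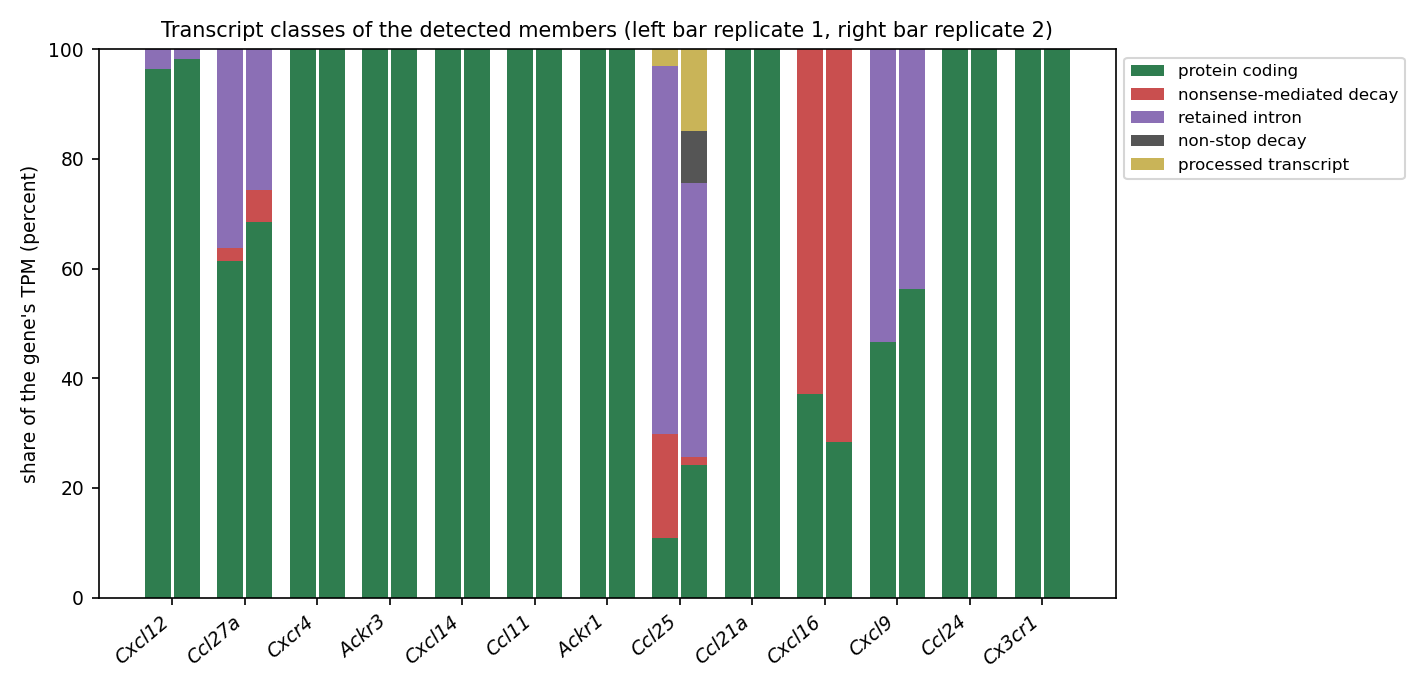
Share of TPM by annotated transcript class for the 13 detected members, in percent, with replicate 1 as the left and replicate 2 as the right bar of each pair. Ccl25 and Cxcl16 are the members with less than 50% of TPM in protein coding transcripts in both libraries.

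Sequence copies limit some of the CC ligand values. Of the 31-base words in Ccl21b and Ccl27b, 100% occur in another annotated gene, and so do 80.6% of those in Ccl21a, 58.8% in Ccl19 and 57.0% in Ccl27a. The copy Gm13304, which holds 79.5% of the Ccl21a words, stood at 3.21 and 4.44 TPM, so the division between them is uncertain. All words of Ccl21b also occur in Gm13304, which had 66.7 and 105.1 counts, so the 0 counts of Ccl21b do not bound its level. Ccl27b had 0 and 4.90 counts and Ccl19 0 and 4.79. Cxcr2, the receptor of the Glu-Leu-Arg ligands, shares 7.70% of its words with 708 other genes, and was at 0.83 and 0.65 TPM in the kallisto-format tables against 0.08 and 0.01. Cxcl10 overlaps Art3, a protein coding gene on the opposite strand, by 133 exonic bases, and Art3 was at 144.9 and 132.7 TPM.

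The levels of the detected members in the 2 table formats differed by less than 2-fold. Of 13 detected members 0 were at least 2-fold apart between formats, against 8.09% of detected genes. The kallisto-format level was higher in 12 of 13, with a median log2 ratio of 0.49, beside 0.54 over all detected genes. Nuclear coding genes took 46.0% and 47.0% of TPM in one format and 75.6% and 75.5% in the other. The largest log2 ratios were 0.73 for Ackr1, 0.72 for Ccl25 and 0.63 for Ccl11. The smallest were -0.41 for Cxcl9, 0.08 for Ccl24 and 0.35 for Ackr3. With TPM rescaled to nuclear coding genes, a scale chosen after seeing the data, 21 members reached TPM 1 in both libraries.

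Position and promoter sequence were described for the members as features that the choice of genes did not use. In all, 7 runs of neighbouring chemokine genes, each of 3 or more members with gaps of at most 1 Mb, held 34 members, of which 4 were detected, whereas 9 of the 25 members elsewhere were. The run of 5 Cxcl genes on chromosome 5 from 90759360 to 90905938 summed to 0.21 and 0.06 TPM, and the run of 7 receptor genes on chromosome 9 from 123678439 to 124147699 to 3.06 and 1.52. The run Ccl2, Ccl7, Ccl11, Ccl12, Ccl8 and Ccl1 on chromosome 11 reached 7.53 and 8.33, of which Ccl11 was 5.41 and 6.66. Cxcl12, Cxcr4, Ackr3 and Cxcl14 lie outside such runs.

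RefSeq promoters (GRCm38.p6, 250 bases before the start) were matched for 44 of 59 members, 35 of them within 100 bases of the start of the leading transcript. Of these 35, 10 were detected. The NF-kappaB consensus, searched on both strands, was found in 0 of the 10 and in 8 of the other 25 (Ccl9, Ccl20, Ccr3, Ccr6, Cxcl1, Cxcl2, Cxcl3 and Cxcl10), and in 3.75% of 27025 promoters of all genes. TATAAA on the gene's strand within 50 bases of the start was found in 3 of the 10 and 5 of the 25, and in 2.88% of all. The GC box GGGCGG on either strand was found in 3 of the 10 and 3 of the 25, and in 32.9% of all. A match is a description of the letters and not of binding. The 150 bases before the start are printed for the leading ligand, for its receptors, and for Cxcl3, a Glu-Leu-Arg ligand at 0 counts, to set a detected gene beside an undetected one. Capitals mark GGGCGG on either strand, TATAAA and the NF-kappaB consensus.
Cxcl12 (chr6:117168385-117168534, plus strand): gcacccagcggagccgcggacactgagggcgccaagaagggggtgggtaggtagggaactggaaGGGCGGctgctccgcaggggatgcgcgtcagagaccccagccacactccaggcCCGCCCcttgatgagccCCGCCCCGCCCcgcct
Cxcr4 (chr1:128592300-128592449, minus strand): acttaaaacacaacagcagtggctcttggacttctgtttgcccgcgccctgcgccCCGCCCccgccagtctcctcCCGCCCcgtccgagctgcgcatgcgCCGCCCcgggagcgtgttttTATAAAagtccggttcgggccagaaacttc
Ackr3 (chr1:90203830-90203979, plus strand): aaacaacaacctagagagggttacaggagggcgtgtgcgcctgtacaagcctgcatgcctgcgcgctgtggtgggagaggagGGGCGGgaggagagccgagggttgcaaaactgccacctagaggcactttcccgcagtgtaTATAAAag
Cxcl3 (chr5:90785951-90786100, plus strand): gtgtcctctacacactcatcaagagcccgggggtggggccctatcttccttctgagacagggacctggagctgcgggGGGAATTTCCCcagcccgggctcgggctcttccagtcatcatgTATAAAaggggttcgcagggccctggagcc
The Cxcl12 stretch holds GC boxes with no TATAAA, those of Cxcr4 and Ackr3 hold both, and that of Cxcl3 holds the NF-kappaB consensus and TATAAA.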

How the data were processed

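The 2 gastrocnemius total RNA libraries were analysed. Deposited tables in the format of RSEM give expected counts and TPM per gene and transcript, posterior mean TPM, and the percent of gene TPM held by a transcript, per the file headers; the kallisto-format tables deposited by the authors give estimated counts and TPM per transcript, summed here per gene. The build was mm10 with GENCODE M21, per the deposited readme text; the quantification programs are not given in these sources. Rows that name no gene held 1.38e-05% and 5.00e-06% of counts and were left out. Spike-ins took 0.720% and 0.798% of counts.

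The members and gene lists were chosen with earlier results of these data known. The RSEM-format values were primary. Expected counts were rounded, and replicate ratios are log2 CPM after TMM scaling (prior count 0.5; edgeR 4.0.16, R 4.3.3), a calculation tested on simulated data; DESeq2 1.42.0 size factors were an alternative. Log2 ratios between formats used a pseudocount of 0.01. Coding sequences came from GENCODE transcripts and promoters from RefSeq. Python 3.11.15, pandas 2.3.3, numpy 2.4.6 and scipy 1.17.1 were used. Named genes were the detected members, the 5 members on either side of the threshold, those 2-fold apart, those whose largest coding transcript held under 80% of TPM, the 3 largest differences between formats in each direction, members at 0 counts, and the leading 3 of each list; some of these were left out, and other genes were added, after their values were seen. Values of 1 receptor and 1 marker are not reported here.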

Additional observations from a re-analysis of the deposited data

How the results depend on the processing

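The count of detected members (13) was 21 at TPM 0.5, 23 with an expected count of at least 10 and 21 with TPM rescaled to nuclear coding genes, the last chosen after seeing the data; leaving out 1 library gave 14 to 18. The 2 pairs with both sides detected became 11 under each of these, 6 with kallisto-format TPM, 4 with posterior mean TPM, and 3 to 7 with 1 library left out. Leaving out replicate 2 gave the 7. Members 2-fold apart (0) became 1 with library totals, 3 with spike-in totals, 1 with kallisto-format counts, 11 with no count filter and 5 at 1.5-fold.

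With kallisto-format TPM, ligands summed to 119.4 TPM and receptors to 38.4, ligands held 0.0161% of nuclear coding TPM, Cxcl12 held 47.0% of ligand and Cxcr4 32.5% of receptor TPM, and Cxcl12 gamma, alpha and beta held 43.4%, 45.3% and 8.60%. Posterior mean TPM gave Cxcl12 47.0% and Cxcr4 31.2%. Expected counts gave 75.2% and 26.2%, with gamma at 58.2% and alpha at 23.3%, since longer transcripts yield more reads. With 1 library left out, the summed TPM was 82.4 to 91.2 for ligands and 22.7 to 30.1 for receptors, the share of Cxcl12 48.0% to 51.6% and that of Cxcr4 33.9% to 34.9%. Except where stated, the cause was not tested. Of 227 further values of single genes, 33 moved beyond a set limit. That limit was the SD of the 2 libraries for levels, transcript shares and format ratios, and the counting interval for replicate ratios. With 2 libraries, a level or share with 1 library left out cannot pass that SD, so the count does not measure stability. The log2 replicate ratio of Cxcl14, 0.32 with a counting interval of 0.11 to 0.53, was -0.044 with spike-in totals. Depth limits the 39 members with a mean count under 20. No paired analysis was possible because the series has 1 group.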
